A study of Mus musculus with 4 samples.

Results

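The genes described here are 10 C-type lectins named as markers of myeloid subsets: Clec4f, Clec1b, Clec9a, Clec10a, Mgl2, Cd209a, Cd209d, Clec4e, Clec7a and Clec12a. They were taken by name, through their Ensembl identifiers, out of 32285 genes. For 9 of the 10 the identifier was matched, and Clec7a was not analysed here. The cells were CD45+ leukocytes from the liver of healthy PA-GFP C57BL/6 mice, which carry a green fluorescent protein that light switches on, and every library bears the treatment label Photoactivation. There were 2 libraries from the portal vein zone (PV) and 2 from the central vein zone (CV), made with droplet 3′ chemistry that counts molecules by unique molecular identifiers (UMIs). Nothing in the labels says whether the 2 libraries of a zone came from different mice, so every p-value below measures the spread between libraries.

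C-type lectins are membrane proteins with a fold that in many members binds sugars with the help of calcium. On myeloid cells they act as receptors for microbes, for dying cells and for the body's own glycoproteins. Some carry or couple to activating motifs that recruit the kinase Syk, others carry inhibitory motifs that recruit phosphatases, and several mainly take up cargo. Many of these lectins are made by few cell types and are widely used to tell Kupffer cells from dendritic cells, monocytes and neutrophils. Kupffer cells are the resident macrophages of the liver sinusoids.

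The files held 622 and 755 barcodes in PV replicates 1 and 2, and 624 and 588 in CV replicates 1 and 2, with 2741760 to 4373488 UMIs per library. Of 1939 distinct barcodes, 282 occurred in more than 1 library. Such a barcode counted as a cell only where 70% or more of its UMIs lay, which with the limits on genes and mitochondrial UMIs left 333 and 512 cells in PV, against 372 and 376 in CV. A gate on 16 lists of 8 marker genes, none of them a lectin described here, gave a class to 1546 of 1593 cells. Kupffer cells numbered 4 and 121 in PV, against 58 and 41 in CV, so PV replicate 1 stood apart. Other macrophages numbered 14 and 16 in PV, against 8 and 9 in CV. Type 1 conventional dendritic cells (cDC1) numbered 38 and 25 in PV, against 14 and 13 in CV, and the remaining conventional dendritic cells outside the cDC1 and mature gates (other cDC) 9 and 16 in PV, against 1 and 2 in CV. Plasmacytoid dendritic cells (pDC) numbered 1 and 16 in PV, against 6 and 8 in CV, and neutrophils 22 and 12 in PV, against 37 and 15 in CV.

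The gates rest on these marker genes, so the markers describe the classes and do not test them. Vsig4, a complement receptor of Kupffer cells, had 4653 UMIs in the Kupffer gate and 1 in the other macrophage gate. C1qa was seen in 45 of 47 other macrophages, the chemokine receptor gene Xcr1 in 78 of 90 cDC1, Siglech in 30 of 31 pDC and S100a8 in 84 of 86 neutrophils. The gates were not free of other programmes: at least 3 nonclassical monocyte list genes were seen in 46.9% of Kupffer cells and at least 3 cDC1 list genes in 29.5%. Of pDC, 61.3% showed at least 3 conventional dendritic cell list genes and 58.1% at least 3 classical monocyte list genes. Of other macrophages, 25.5% showed at least 3 conventional dendritic cell list genes, and of the other cDC 32.1% at least 3 classical monocyte list genes. The level of a gene is given throughout in CPM, the usual scaled count, here its UMIs in all cells of a class of a library over all UMIs of those cells. Means ± SD are over libraries with at least 10 cells of the class. Since the lectins were chosen as markers, their levels across classes are a description without a test.

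**Figure D1:**
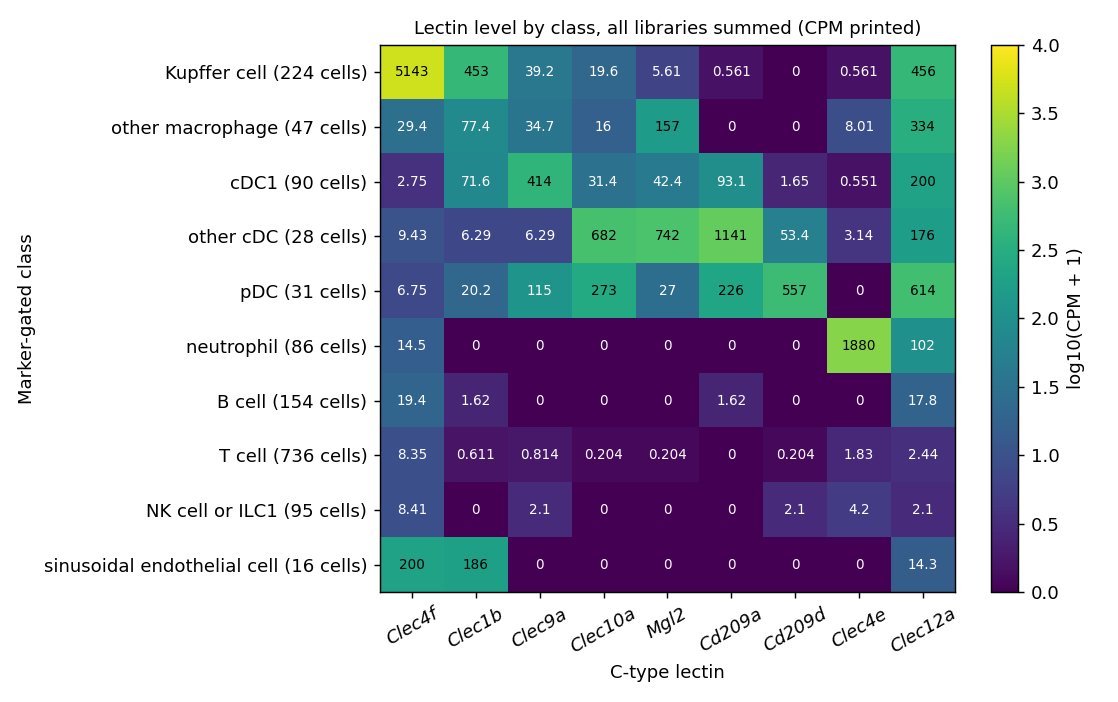
Level of the 9 lectins (columns) in 10 marker-gated classes (rows), all 4 libraries summed. Colour shows log10(CPM + 1) and each cell prints the CPM. Clec4f stands at 5143 CPM in Kupffer cells, Clec4e at 1880 CPM in neutrophils, and Clec12a spreads over most myeloid rows.

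Clec4f, a galactose-binding lectin known in mice as a Kupffer cell marker, lies on chromosome 6 at chr6:83644542-83656187, minus strand (GRCm38). It gave 5258 CPM in Kupffer cells of PV replicate 2 and 4855 and 5147 CPM in those of CV replicates 1 and 2. PV replicate 1 had 6040 CPM from 4 cells. Over the 3 libraries with at least 10 Kupffer cells the level was 5087 ± 208 CPM (SD, n = 3). With shared barcodes retained in every library, 63 and 152 Kupffer cells in PV gave 4681 and 5237 CPM, and 95 and 86 in CV gave 4778 and 5073 CPM. The gene was found in 4 of 4 and 120 of 121 Kupffer cells in PV, against 55 of 58 and 41 of 41 in CV, with a median of 36.5 UMIs in the cells that had any and a maximum of 163. Kupffer cells held 95.8% of all Clec4f UMIs. Other macrophages had 0 and 37.1 CPM in PV, against 0 and 82.9 CPM in CV, in 5 of 47 cells.

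T cells, which are not known to make Clec4f, serve as the background class. Whether their UMIs come from free RNA or from doublets was not tested. The T cells had 0 and 17.9 CPM in PV, against 10.8 and 4.37 CPM in CV, in 27 of 736 cells. B cells of PV replicate 2 had more, 64.9 CPM in 8 of 45 cells (10.8% of cells at 2000 UMIs), and those of the other libraries had none. After every cell was thinned to 2000 UMIs, 98.2% of Kupffer cells and 1.42% of T cells kept a Clec4f UMI (unthinned, 98.2% and 3.67%, with 95% Wilson intervals of 95.5% to 99.3% and 2.53% to 5.29%). Among the 47 cells that no gate took, 6 held 303 Clec4f UMIs, 151 of them in 1 cell with 51557 UMIs. The bases upstream of the Clec4f start, where they lie outside any annotated exon, are shown beside those of Clec1b because Kupffer cells are the leading class of both genes (RefSeq, GRCm38.p6, chr6:83656188-83656366 minus strand for Clec4f and chr6:129397047-129397296 plus strand for Clec1b, 5′ to 3′).
Clec4f: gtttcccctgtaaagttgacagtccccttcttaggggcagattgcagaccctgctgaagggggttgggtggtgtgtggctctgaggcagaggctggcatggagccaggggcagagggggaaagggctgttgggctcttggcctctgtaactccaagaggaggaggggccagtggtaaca
Clec1b: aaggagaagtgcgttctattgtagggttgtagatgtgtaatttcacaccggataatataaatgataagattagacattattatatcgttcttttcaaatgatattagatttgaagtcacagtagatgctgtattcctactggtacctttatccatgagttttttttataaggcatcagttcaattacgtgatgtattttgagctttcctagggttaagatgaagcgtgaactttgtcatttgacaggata
The Clec4f stretch had 59.8% G and C bases and the Clec1b stretch 33.2%. Neither held, on either strand, AGGAAGT (PU.1 and other ETS factors), GAAA and GAAA spaced by NN (interferon regulatory factors), GGAA and GAAA spaced by NN (PU.1 with IRF4 or IRF8), TTGCNNCAA (C/EBP), TGANTCA (AP-1) or CACGTG (E-box). In windows of the Clec1b length these letters occurred in 7.69%, 2.98%, 2.3%, 1.74%, 6.75% and 6.02% of 32851 promoters. In windows of the Clec4f length the shares were 4.92%, 2.19%, 1.59%, 1.33%, 4.89% and 3.67%. A missing match says only that these letters are not in the window.

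Clec1b encodes CLEC-2, a receptor for podoplanin that signals through Syk and is best known on platelets. In Kupffer cells it gave 450 CPM in PV replicate 2 and 427 and 485 CPM in CV, a mean of 454 ± 29.3 CPM (SD, n = 3), and 659 CPM in the 4 cells of PV replicate 1. It was present in 174 of 224 Kupffer cells, 171 of which also had Clec4f. Kupffer cells held 79.7% of its UMIs. In the 12 sinusoidal endothelial cells of PV replicate 2 it reached 222 CPM, from 13 UMIs in 7 cells, and it was seen in 3 of 736 T cells. Those endothelial cells also had 239 CPM of Clec4f, from 14 UMIs in 2 cells.

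Clec1b was also present in cDC1, with 66.4 and 53.5 CPM in PV, against 97.3 and 93.2 CPM in CV, in 52 of 90 cells. PV replicate 2 was the lowest and CV replicate 1 the highest. cDC1 are deep cells, with a median of 20754 to 23134 UMIs per cell against 4446.5 to 7972 in Kupffer cells and 5938 to 6402.5 in T cells. At 2000 UMIs per cell, 14.2% of cDC1, 52.1% of Kupffer cells and 0.121% of T cells kept a Clec1b UMI (unthinned, 57.8%, 77.7% and 0.408%). In cDC1 there were 130 Clec1b and 5 Clec4f UMIs, against 808 and 9175 in Kupffer cells. Of 8 platelet list genes, none was detected in at least 10% of cDC1, and 1 each was in Kupffer cells and other macrophages. Pf4 had 0 UMIs in cDC1, 184 in Kupffer cells and 250 in other macrophages, where the summed level was 667 CPM, and its part in the Clec1b values was not tested. Other macrophages had 55.7 and 22.3 CPM of Clec1b in PV, and 183 and 124 CPM in the 8 and 9 cells of CV.

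Clec9a, also known as DNGR-1, binds the actin filaments exposed by dead cells and marks cDC1. In cDC1 it gave 483 and 245 CPM in PV, against 441 and 497 CPM in CV, a mean of 416 ± 117 CPM (SD, n = 4). PV replicate 2 was the low library and the other 3 lay between 441 and 497 CPM. The gene was present in 34 of 38 and 22 of 25 cDC1 in PV, against 14 of 14 and 13 of 13 in CV, and cDC1 held 81.8% of its UMIs. In the other cDC it was seen in 2 of 28 cells, with 2 UMIs.

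Lower amounts of Clec9a occurred in pDC and Kupffer cells. In pDC it gave 120 CPM in the 16 cells of PV replicate 2 and 96.3 and 74.2 CPM in CV, with 34 UMIs in 16 of 31 cells over all 4 libraries. Kupffer cells had 41.0 CPM in PV replicate 2 and 31.1 and 47.0 CPM in CV, a mean of 39.7 ± 8.04 CPM (SD, n = 3), in 44 of 224 cells. With 2000 UMIs per cell, 54.2% of cDC1, 19.6% of pDC, 6.58% of Kupffer cells and 0.154% of T cells kept a Clec9a UMI (unthinned, 92.2%, 51.6%, 19.6% and 0.543%). Of the 44 Kupffer cells with Clec9a, 43 also had Clec4f and 41 also had Clec1b. Of the 8 cDC1 list genes, 5 were detected in at least 10% of Kupffer cells, among them Cadm1 (439 UMIs), Naaa (87) and Wdfy4 (82), while Xcr1 had 2 UMIs. Their part in the Clec9a values was not tested.

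Some of this signal is uncertain for a reason of position. Clec12a, Clec1b and Clec9a follow each other on the plus strand of chromosome 6 at chr6:129342691-129365303, chr6:129397297-129409335 and chr6:129408862-129424763 (GRCm38). Clec1b and Clec9a overlap by 474 bases, of which 184 are exonic in both, and 136 of the 3385 stretches of 50 bases in Clec9a exons also occur in Clec1b. A read in the shared bases cannot be assigned to either gene by sequence. Whether such reads were counted or lost, and their part in the Clec1b and Clec9a counts of Kupffer cells, was not tested. In the cDC1, 51 of the 52 cells with Clec1b had Clec9a as well, beside 83 of all 90 cDC1.

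Clec10a and Mgl2 are neighbours on the plus strand of chromosome 11, at chr11:70156197-70170834 and chr11:70130329-70137550 (GRCm38). They encode the macrophage galactose-type lectins, receptors for galactose and N-acetylgalactosamine that mark type 2 conventional dendritic cells and some macrophages. Of 2205 stretches of 50 bases in Mgl2 exons, 270 also occur in Clec10a, so part of their reads cannot be told apart. Cd209a, a mouse relative of DC-SIGN that binds mannose-rich sugars, lies at chr8:3743397-3748984 on the minus strand of chromosome 8. The stretches before the starts of Mgl2 (chr11:70130107-70130328, plus strand) and Cd209a (chr8:3748985-3749234, minus strand) are given because both genes led in the same class (RefSeq, GRCm38.p6, outside exons, 5′ to 3′). Capitals mark the only motif match.
Mgl2: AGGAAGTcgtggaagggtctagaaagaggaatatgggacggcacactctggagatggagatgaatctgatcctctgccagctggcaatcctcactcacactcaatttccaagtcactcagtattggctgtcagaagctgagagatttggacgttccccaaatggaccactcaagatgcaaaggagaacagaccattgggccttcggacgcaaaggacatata
Cd209a: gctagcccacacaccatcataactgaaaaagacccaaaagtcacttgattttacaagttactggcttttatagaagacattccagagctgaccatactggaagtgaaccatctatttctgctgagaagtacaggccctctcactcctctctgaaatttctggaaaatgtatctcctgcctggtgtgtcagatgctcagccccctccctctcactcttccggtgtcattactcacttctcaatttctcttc
The match in the Mgl2 stretch is AGGAAGT, 250 bases before the RefSeq start, which lies 28 exon bases past the end of the stretch. These letters are in 6.59% of 32851 promoter windows of that length. The Cd209a stretch held none of the 6 motifs in full. Its last letters, tttctcttc, lack only the final C of TTTCTCTTCC, the Cd209d match described below, and the window stops there. Whether the next base completes it was not tested. Whether any factor binds in either stretch was not measured.

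All 3 genes were highest in the other cDC. Clec10a gave 1088 CPM in the 9 cells of PV replicate 1 and 562 CPM in the 16 of PV replicate 2, against 455 CPM in 1 cell (2 UMIs) and 0 in 2 cells of CV. Mgl2 gave 1088 and 645 CPM in PV, against 0 and 215 CPM in CV. Cd209a gave 1414 and 1083 CPM in PV, against 228 and 645 CPM in CV. With 3 such cells in CV altogether, the CV values carry little weight: summed over libraries the class had 682 CPM of Clec10a (95% exact Poisson interval 594 to 779), 742 CPM of Mgl2 (650 to 843) and 1141 CPM of Cd209a (1027 to 1265). These intervals cover counting error only. The other cDC, 28 of 1593 cells, held 53.5% of the Clec10a UMIs, 57.1% of the Mgl2 UMIs and 54.6% of the Cd209a UMIs.

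The 3 genes were often found together. Of 28 other cDC, 11 had all 3 lectins, 13 had 2, 3 had 1 and 1 had none. Clec10a and Cd209a were each present in 23 cells and Mgl2 in 16. Mgl2 was uneven, with 65 of its 236 UMIs in 1 cell. At 2000 UMIs per cell, 61.7%, 42.3% and 65.5% of the other cDC kept Clec10a, Mgl2 and Cd209a, against 0.108%, 0.0568% and 0% of T cells (unthinned, 82.1%, 57.1% and 82.1% against 0.136%, 0.136% and 0%). For Cd209a, 0 of 736 T cells had a UMI, and 3 cells would be 0.408%, a limit on cells with a UMI and not on cells that express the gene.

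In the cDC1 gate the same 3 genes sat in few cells. Cd209a had 57 and 82 UMIs in PV, against 29 and 1 in CV, Clec10a 29 and 17 in PV, against 7 and 4 in CV, and Mgl2 53 and 9 in PV, against 9 and 6 in CV. Only 11 of 90 cDC1 had Cd209a, 8 had Clec10a and 9 had Mgl2. A group picked after its values were seen, the 5 cDC1 with all 3 genes, held 141 of the 169 Cd209a UMIs, 67 of the 77 Mgl2 UMIs and 42 of the 57 Clec10a UMIs. Of these 5 cells, 1 had Clec9a (1 UMI), while 82 of the other 85 did. Their median depth was 22470 UMIs against 21559 in the other 85.

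**Figure D2:**
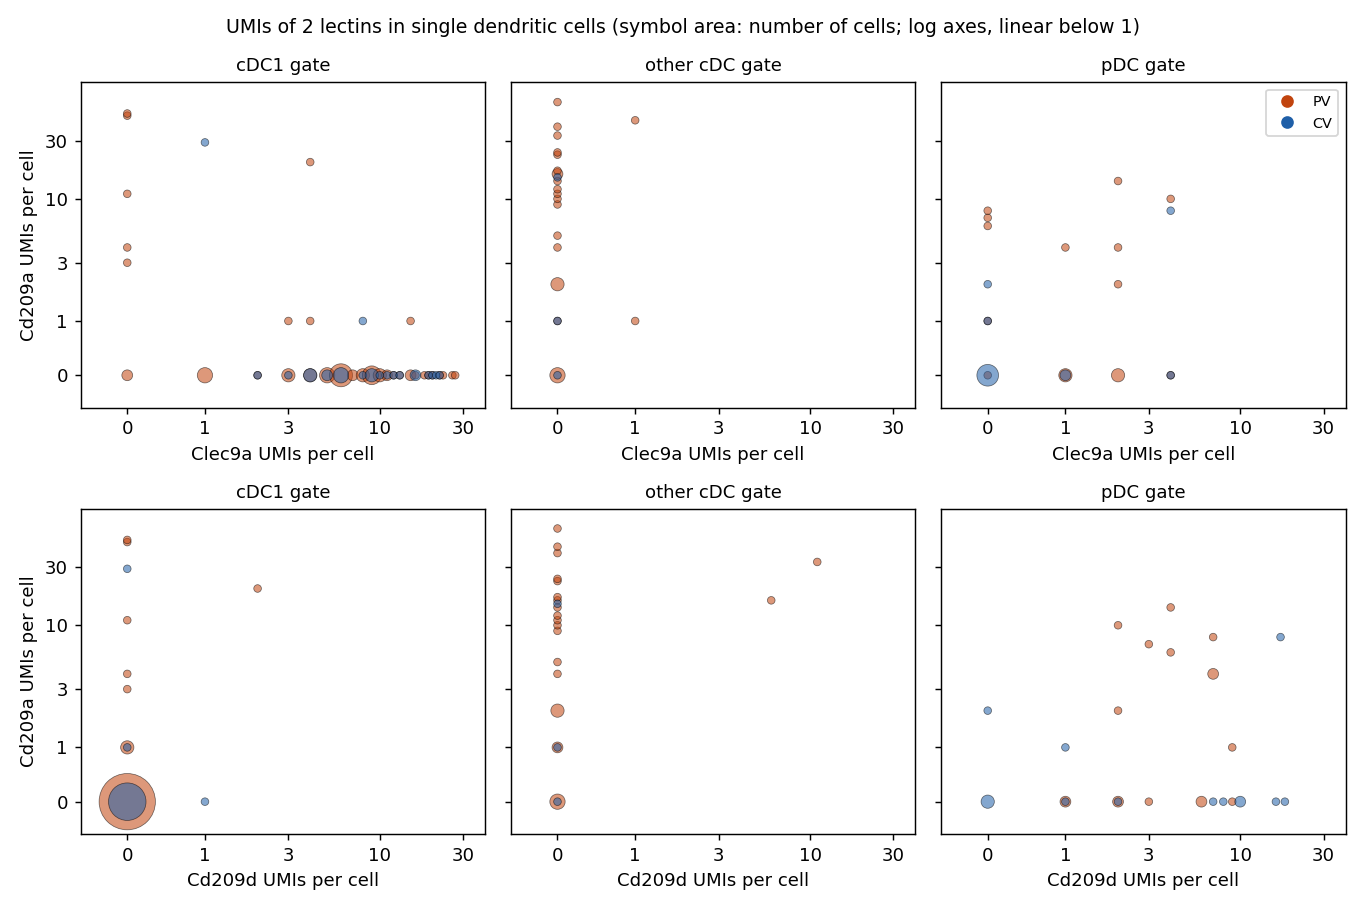
UMIs of Cd209a (vertical axes) against Clec9a (top row) and Cd209d (bottom row) in single cells of the cDC1, other cDC and pDC gates, on log axes that are linear below 1. Symbol area gives the number of cells, PV in orange and CV in blue. In the cDC1 gate most cells lie along the Clec9a axis with no Cd209a, in the other cDC gate along the Cd209a axis with at most 1 Clec9a UMI, and Cd209d extends over the pDC.

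Mgl2 was also present in other macrophages, and there its UMIs were in the PV libraries. It gave 204 and 275 CPM in PV, from 22 UMIs in 8 of 14 cells and 37 UMIs in 6 of 16 cells. In CV there was no UMI in 8 and 9 cells, where 3 counts would have been 50.03 and 41.4 CPM. A single PV cell held 25 of the 59 UMIs. Cd209a had 0 UMIs in these 47 cells and Clec10a 6 in 1 cell. In Kupffer cells Mgl2 came to 10 UMIs, all in 1 cell of PV replicate 2 that had 47 Clec4f UMIs.

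Clec10a in Kupffer cells was low but even, with 19.5 CPM in PV replicate 2 and 20.0 and 20.6 CPM in CV, a mean of 20.0 ± 0.54 CPM (SD, n = 3). The 35 UMIs lay in 26 cells, and all 26 had Clec4f. With 2000 UMIs per cell, 3.60% of Kupffer cells and 0.108% of T cells kept a Clec10a UMI (unthinned, 11.6% and 0.136%). Cd209a had 1 UMI in the same 224 cells.

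The pDC carried Clec10a, Cd209a and, above all, Cd209d. Cd209d, at chr8:3871824-3878555 on the minus strand, is another mouse relative of DC-SIGN, and it shared no 50-base stretch with the exons of any other gene. In pDC it gave 438 CPM in the 16 cells of PV replicate 2 and 732 and 771 CPM in the 6 and 8 cells of CV, with 196 CPM (2 UMIs) in the single pDC of PV replicate 1. It was present in 27 of 31 pDC, which held 85.5% of its UMIs, and came to 557 CPM over all libraries (475 to 649). At 2000 UMIs per cell 54.6% of pDC and 0.108% of T cells kept it (unthinned, 87.1% and 0.136%). Outside pDC the main source was 2 other cDC in PV, with 11 and 6 UMIs, both of which also had Cd209a. The stretch before the Cd209d start (RefSeq, GRCm38.p6, chr8:3878556-3878749, minus strand, 5′ to 3′) is shown because pDC led for this gene and not for Cd209a. Capitals mark a match.
Cd209d: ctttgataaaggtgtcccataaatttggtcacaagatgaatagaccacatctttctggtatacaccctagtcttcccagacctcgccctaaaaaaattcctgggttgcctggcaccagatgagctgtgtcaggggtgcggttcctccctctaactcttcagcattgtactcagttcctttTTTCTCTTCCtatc
The match, 70 bases before the RefSeq start, which lies 56 exon bases past the end of the stretch, reads GGAA, NN, GAAA on the other strand, letters found in 1.74% of 32851 windows of that length.

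Clec10a in pDC gave 234 CPM in PV replicate 2 and 289 and 282 CPM in CV, in 23 of 31 cells, and the single pDC of PV replicate 1 had 8 UMIs. Cd209a gave 276 CPM in PV replicate 2 and 173 and 29.7 CPM in CV, in 12 of 31 cells, with CV replicate 2 the lowest. Of the 12 pDC with Cd209a, 11 had Cd209d. With 2000 UMIs per cell, 38.6% of pDC kept Clec10a and 23.1% kept Cd209a (unthinned, 74.2% and 38.7%). Mgl2 had 8 UMIs in 6 pDC.

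Clec4e encodes Mincle, an activating receptor for mycobacterial glycolipid and for a ribonucleoprotein released by dead cells, which signals through the adaptor Fcer1g and Syk. It lies at chr6:123281789-123289870 on the minus strand. In neutrophils it gave 2368 and 1036 CPM in PV, against 2102 and 1111 CPM in CV, a mean of 1654 ± 680 CPM (SD, n = 4). Within each zone replicate 1 was the higher library, and the zones overlapped. It was present in 20 of 22 and 10 of 12 neutrophils in PV, against 34 of 37 and 13 of 15 in CV, and neutrophils held 92.5% of its UMIs. At 2000 UMIs per cell 83.4% of neutrophils and 0.252% of T cells kept it (unthinned, 89.5% and 0.408%). Nonclassical monocytes had 9 UMIs in 6 of 14 cells, and the Kupffer and cDC1 gates 1 UMI each. The stretch before its start, from the gene with the narrowest myeloid pattern after Clec4f, is at chr6:123289872-123290121, minus strand (RefSeq, GRCm38.p6, 5′ to 3′), and held none of the 6 motifs.
Clec4e: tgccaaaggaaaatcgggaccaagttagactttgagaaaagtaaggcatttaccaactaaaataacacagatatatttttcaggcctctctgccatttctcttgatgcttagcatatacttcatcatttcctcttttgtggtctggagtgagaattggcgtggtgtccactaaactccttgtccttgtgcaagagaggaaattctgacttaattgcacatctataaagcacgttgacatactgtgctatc

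Clec12a, an inhibitory receptor that recognises uric acid crystals, was the broadest of the 9. Kupffer cells had 436 CPM in PV replicate 2 and 471 and 494 CPM in CV, a mean of 467 ± 29.1 CPM (SD, n = 3). Other macrophages had 223 and 282 CPM in PV, against 517 and 442 CPM in the 8 and 9 cells of CV. cDC1 had 183 and 193 CPM in PV, against 215 and 249 CPM in CV, a mean of 210 ± 29.1 CPM (SD, n = 4). pDC reached 486 CPM in PV replicate 2 and 848 and 816 CPM in CV, or 614 CPM over all libraries (528 to 710), and 30 of 31 pDC had the gene.

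Ordered by the pooled level, Clec12a ran from pDC (614 CPM) over Kupffer cells (456 CPM), other macrophages (334 CPM), cDC1 (200 CPM) and other cDC (176 CPM) to neutrophils (102 CPM). The library values of each neighbouring pair in this order overlap, while those of Kupffer cells and cDC1 do not. Compared within each library, other macrophages were above cDC1 in all 4. pDC were above Kupffer cells except in PV replicate 1 (196 against 494 CPM, from 1 and 4 cells). Kupffer cells were above other macrophages except in CV replicate 1 (471 against 517 CPM, the latter from 8 cells). The order of the remaining neighbours turned in CV libraries with 1 or 2 other cDC. Differences between classes were not tested. Neutrophils scattered, with 50.4 and 0 CPM in PV, against 103 and 290 CPM in CV, in 18 of 86 cells. With 2000 UMIs per cell, the shares were 64.2% of pDC, 58.4% of Kupffer cells, 41.4% of other macrophages, 31.7% of cDC1, 30.8% of other cDC, 14.3% of neutrophils and 0.334% of T cells. Unthinned they were 96.8%, 81.3%, 66.0%, 84.4%, 78.6%, 20.9% and 0.951%.

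**Figure D3:**
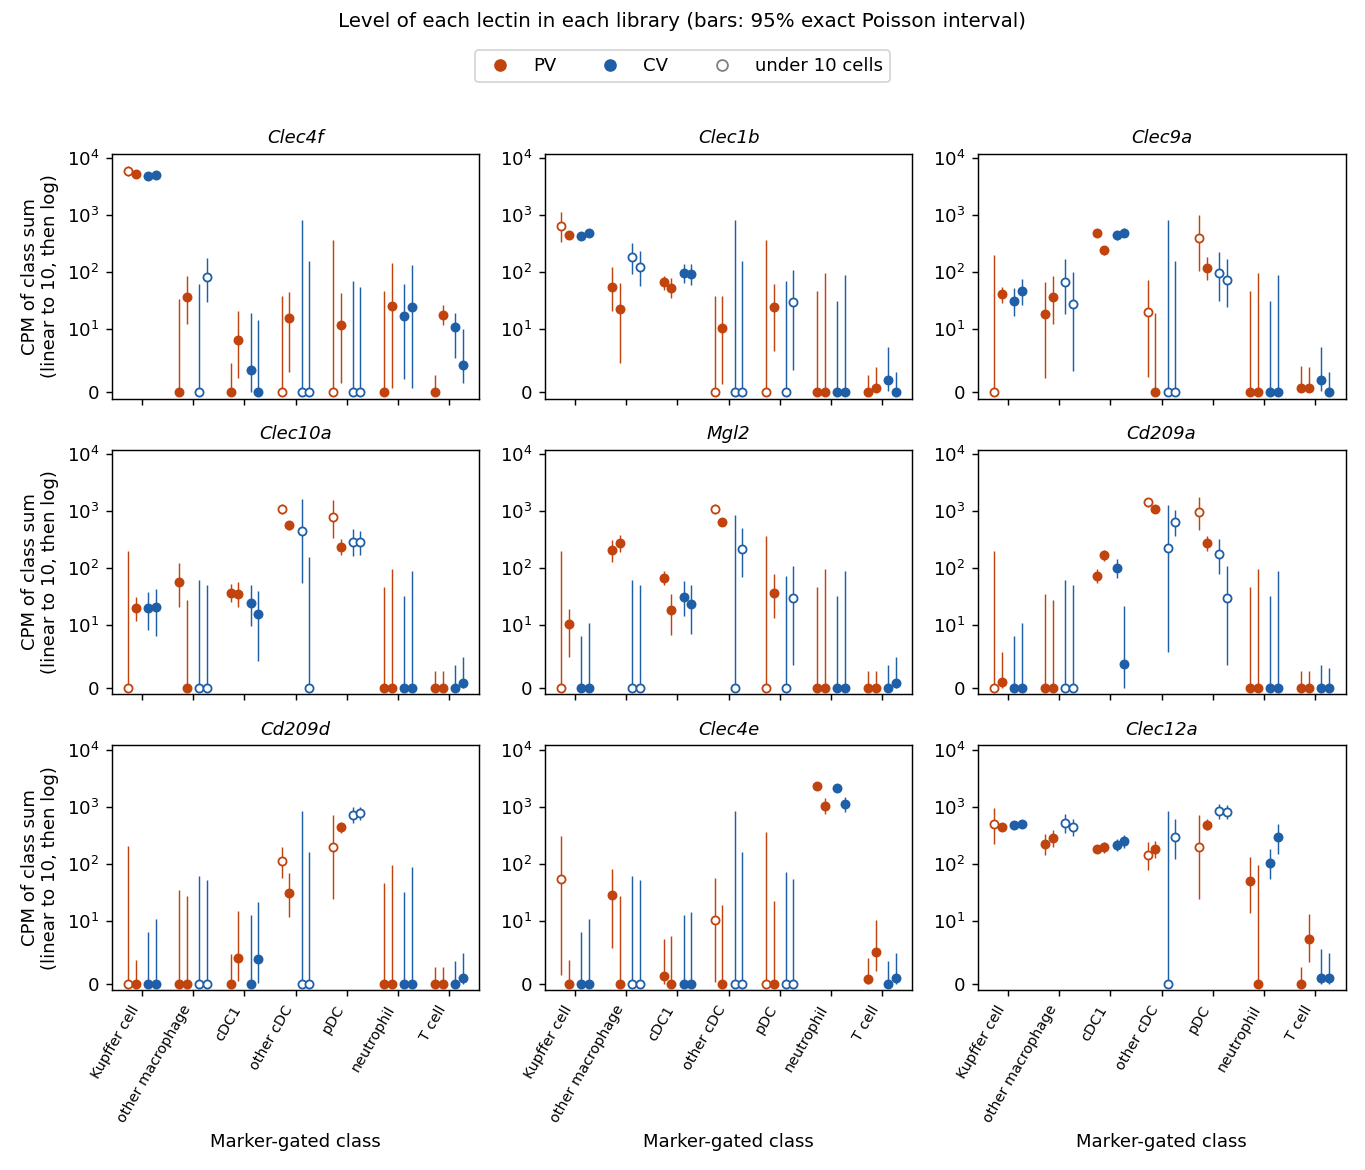
CPM of each lectin in each of the 4 libraries (2 PV in orange, left of 2 CV in blue) for 7 classes, on an axis that is linear to 10 CPM and then logarithmic. Bars are 95% exact Poisson intervals of the UMI count and open symbols have under 10 cells. Clec4f in Kupffer cells stays between 4855 and 6040 CPM in all 4 libraries, while the other cDC symbols of CV rest on 1 and 2 cells.

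The other genes whose levels ran most like each lectin were looked up over 27 sums of a class in a library, by Pearson correlation of log2(CPM + 10). The sums share libraries and classes, so the values are descriptions. The other cDC and the pDC each entered with the sum of PV replicate 2 only. For Clec10a, Mgl2, Cd209a and Cd209d the leading class was thus present from that library alone. Clec4f ran with Vsig4 (r = 0.973), Cd5l (0.972) and Fcna (0.969), of which the first 2 helped to define the Kupffer gate. Clec1b ran with Scarb1 (0.954), the lipoprotein receptor, Adcy4 (0.949) and Cmtm3 (0.932). Clec9a ran with Pdia5 (0.953), Ifi211 (0.899) and P2ry14 (0.895). Clec4e ran with Chil1 (0.991), Mmp8 (0.987), a neutrophil collagenase, and Trem1 (0.985).

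Clec10a and Cd209a shared Fcor (0.892 and 0.912) and Rnd3 (0.85 and 0.849) as neighbours, with Fgfr1 (0.87) beside Clec10a and St8sia1 (0.842) beside Cd209a. Mgl2 ran with Spint1 (0.932), Mcub (0.897) and Arhgap22 (0.86). Cd209d ran with Upb1 (0.939), Smim5 (0.929) and Klk1 (0.928), a gene of the pDC gate. Clec12a ran with Gpx1 (0.898), Psap (0.888) and Mpeg1 (0.887), the perforin of phagocytes. Among the lectins themselves the closest pairs were Clec10a with Cd209a (0.854), Clec4f with Clec1b (0.731) and Clec10a with Mgl2 (0.724). The first and last of these pairs had their leading class from PV replicate 2 alone.

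Whether the lectins differed between the zones was tested with edgeR's quasi-likelihood test on UMI sums per library, separately for conventional dendritic cells, macrophages, neutrophils and all cells, with p-values adjusted over all genes tested. In sums of cells, fewer cells of a type and less RNA per cell cannot be told apart. Conventional dendritic cells (cDC1, other cDC and mature cells together) gave 48 and 45 cells in PV, against 18 and 15 in CV. The test called 0 of 5241 genes, a percentage called of 0%, with 379 genes at an unadjusted p under 0.05, and DESeq2 called 7.

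In these cells Clec10a had 148 and 166 CPM in PV, against 26.2 and 14.2 CPM in CV, a log2 fold change of 2.94 ± 0.34 (SE, PV over CV) with an edgeR adjusted p of 0.0982. Mgl2 had 175 and 177 CPM in PV, against 26.2 and 39.2 CPM in CV (log2 2.47 ± 0.29, edgeR adjusted p of 0.0982). Cd209a had 214 and 386 CPM in PV, against 87.3 and 57.0 CPM in CV (log2 2.07 ± 0.38, edgeR adjusted p of 0.447). Both PV libraries were above both CV libraries for all 3, and none passed 0.05. DESeq2 gave adjusted p-values of 0.00369, 0.0041 and 0.014, and edgeR without PV replicate 1 gave 6.4e-04, 0.0015 and 0.0015. A fit that leaves out a library has 1 library in that zone, which is assumed to vary like the 2 of the other zone. Over all alternatives run on the same cells, the adjusted p-values ran from 1.6e-11 to 0.375 for Clec10a, from 1.1e-09 to 0.259 for Mgl2 and from 3.0e-10 to 0.847 for Cd209a.

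Clec1b had 56.7 and 37.3 CPM in PV, against 81.4 and 85.5 CPM in CV (log2 -0.79 ± 0.31, edgeR adjusted p of 0.675). Clec9a had 416 and 162 CPM in PV, against 375 and 456 CPM in CV (log2 -0.49 ± 0.40, edgeR adjusted p of 0.839). Clec12a had 171 and 180 CPM in PV, against 183 and 253 CPM in CV (log2 -0.28 ± 0.23, edgeR adjusted p of 0.843). Thus 3 of the 6 lectins tested were higher in both PV libraries, as were 17.6% of all genes tested, and 2 of 6 were lower in both, as were 19.9%.

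The makeup of the dendritic cells moved with these values, since the other cDC were 9 and 16 cells in PV, against 1 and 2 in CV. Within the cDC1 gate alone, a comparison chosen after the data were seen, the log2 fold changes were 0.89 ± 0.43 for Clec10a, 0.80 ± 0.62 for Mgl2 and 1.16 ± 0.73 for Cd209a, with edgeR adjusted p-values of 0.688, 0.819 and 0.751. Of the 90 cDC1, 5 had all 3 genes, 2 and 2 in PV, against 1 and 0 in CV. They held 141 of 169 Cd209a, 67 of 77 Mgl2 and 42 of 57 Clec10a UMIs, and 1 of them had Clec9a. In the cDC1 gate, too, fewer such cells and less RNA per cell cannot be told apart. The other cDC were too few in CV to be tested alone.

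**Figure D4:**
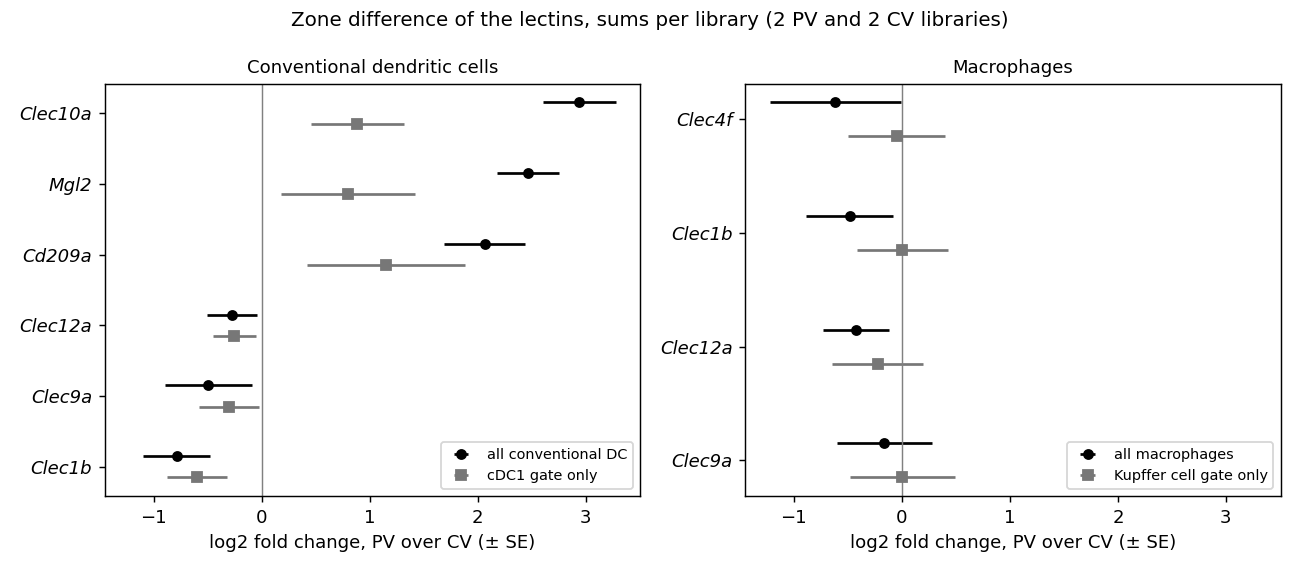
Log2 fold change of the lectins, PV over CV, with its standard error, from sums per library (2 PV and 2 CV). Left, all conventional dendritic cells (black circles) and the cDC1 gate alone (grey squares); right, all macrophages and the Kupffer gate alone. Clec10a, Mgl2 and Cd209a lie between 2.07 and 2.94 in all conventional dendritic cells and between 0.80 and 1.16 in the cDC1 gate, and in the Kupffer gate Clec4f, Clec1b and Clec9a lie near 0 and Clec12a at -0.23. In the cDC1 gate 5 cells held most UMIs of Clec10a, Mgl2 and Cd209a. Mgl2 in macrophages is left out because CV had no UMI.

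In macrophages (18 and 137 cells in PV, 66 and 50 in CV) edgeR called 0 of 5786 genes, a percentage called of 0%, with 105 at an unadjusted p under 0.05, and DESeq2 called 2. Clec4f had 874 and 4625 CPM in PV, against 4285 and 4259 CPM in CV (log2 -0.62 ± 0.61, edgeR adjusted p of 1). The low library was PV replicate 1, where 4 of 18 macrophages were Kupffer cells. Without PV replicate 2 the log2 fold change was -2.15 for Clec4f (edgeR adjusted p of 2.0e-11) and -1.38 for Clec1b (edgeR adjusted p of 0.0116). Clec1b (log2 -0.48 ± 0.41), Clec12a (-0.43 ± 0.31) and Clec9a (-0.16 ± 0.44) also had an edgeR adjusted p of 1. In the Kupffer gate alone, with 4 cells in PV replicate 1, the log2 fold changes were -0.05 for Clec4f, 0.01 for Clec1b, -0.23 for Clec12a and 0.00 for Clec9a.

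Mgl2 was the exception, with 22 and 47 UMIs in PV macrophages and 0 and 0 in CV. Set against 3 counts over the CV group, it was at least 17.2-fold higher in PV. Such a bound covers counting error of UMIs only and leaves out the spread between cells. The edgeR adjusted p was 1, and over the alternatives run on the same cells it ran from 2.9e-14, without PV replicate 2, to 1. It was under 0.05 also without PV replicate 1, without CV replicate 2, with no filter on low counts and with the replicate number as a block. With CV at 0 the gene passed the filter through PV alone, so these p-values are given as a description. In the other macrophage gate alone, chosen after the data were seen, there were 59 UMIs in PV, against 0 in CV, at least 10.7-fold higher in PV. With shared barcodes retained in every library that held them, other macrophages had 23 and 37 Mgl2 UMIs in PV, against 1 and 0 in CV, and the edgeR adjusted p over all macrophages was 0.181. Of 5 lectins tested in macrophages, Mgl2 was the 1 that was higher in both PV libraries, as were 14.1% of all genes tested. Clec12a was the 1 that was lower in both, as were 16% of genes. With CV at 0, Mgl2 could only come out higher in PV, so its place in this count is also a description.

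In neutrophils (22 and 12 cells in PV, 37 and 15 in CV) edgeR called 0 of 846 genes, a percentage called of 0%, with 25 at an unadjusted p under 0.05, and DESeq2 called 0. Clec4e, the 1 lectin that passed the filter, had a log2 fold change of 0.11 ± 0.48 (edgeR adjusted p of 0.999). In the sums of all kept cells edgeR called 0 of 10502 genes, a percentage called of 0%, with 230 at an unadjusted p under 0.05, and DESeq2 called 10. All 9 lectins passed the filter there.

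In those sums Clec10a had 55.03 and 46.7 CPM in PV, against 14.2 and 11.7 CPM in CV (log2 2.004 ± 0.24). Mgl2 had 68.9 and 46.5 CPM in PV, against 3.75 and 9.78 CPM in CV (log2 3.09 ± 0.47), and Cd209a had 75.1 and 84.4 CPM in PV, against 17.1 and 28.2 CPM in CV (log2 1.83 ± 0.28). The edgeR adjusted p of each was 0.9999, and DESeq2 gave 0.0019, 7.1e-05 and 0.00276. With no filter on low counts edgeR gave 1.2e-09, 7.4e-21 and 1.6e-09. Without PV replicate 1 edgeR gave 0.0474, 0.0423 and 0.057, and without PV replicate 2 it gave 0.00287, 0.00175 and 0.014. These 3 of 9 lectins were higher in both PV libraries, as were 13.2% of all genes tested. Values for the other 6 ran from -0.60 for Clec4e to 0.74 for Clec9a, with SEs of 0.35 to 1.27, and their zones overlapped. Without PV replicate 2 edgeR called Clec4f (log2 -4.24, adjusted p of 4.2e-04), Clec1b (-1.66, adjusted p of 0.0141) and Clec9a (1.35, adjusted p of 0.0119).

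The rest of the family was described from a list of 34 other C-type lectins of myeloid and endothelial cells and a list of 17 adaptors and effectors that act downstream of such receptors. In Kupffer cells the members with the highest level were the mannose receptor Mrc1 (859 ± 32.7 CPM), Cd302 (368 ± 17.0 CPM) and Clec4a3 (339 ± 12.5 CPM), each as SD with n = 3. In neutrophils Clec4d, the partner of Mincle, had the highest level (1521 ± 327 CPM, SD, n = 4). Clec2d led in pDC (749 CPM pooled) and cDC1 (94.8 ± 20.9 CPM, SD, n = 4), and Clec4b1 led in the other cDC (189 CPM pooled). Other macrophages had Mrc1 (318 CPM pooled) and 118 UMIs of langerin, Cd207 (315 CPM pooled). Over the PV libraries, the only ones with at least 10 such cells, Cd207 gave 14.85 ± 21 CPM (SD, n = 2). Most of its UMIs in this gate were thus in the fewer CV cells. The endothelial lectin Clec4g gave 2690 CPM in 16 sinusoidal endothelial cells.

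The adaptors that Mincle and related receptors depend on were widespread. Tyrobp gave 6207 ± 355 CPM in neutrophils (SD, n = 4), 2473 ± 199 CPM in Kupffer cells (n = 3), 4328 CPM in pDC (pooled) and 639 ± 68.5 CPM in cDC1 (n = 4). Fcer1g gave 2487 ± 154 CPM in neutrophils, 2298 ± 179 CPM in Kupffer cells and 185 ± 21.9 CPM in cDC1. cDC1 thus had the lowest level of both among the classes named.

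No member of either list was called between the zones by edgeR in any of the 4 sums. In conventional dendritic cells 8 of 34 lectins and 15 of 17 adaptors were tested, with median log2 fold changes of 0.43 and 0.44 beside 0.01 over all genes, and 2 of each list had an unadjusted p under 0.05. Cd207 had 18.5 and 2.66 CPM in PV, against 186 and 74.8 CPM in CV (log2 -3.52 ± 0.69, edgeR adjusted p of 0.470). Clec4b1 (log2 1.03 ± 0.43), Ptpn11 (1.52 ± 0.42), Tyrobp (0.49 ± 0.17), Lyn (0.42 ± 0.22) and Clec2i (0.65 ± 0.48) were on the PV side with edgeR adjusted p-values of 0.588 to 0.824.

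In macrophages 13 of 34 lectins and 15 of 17 adaptors were tested, with medians of -0.19 and 0.09 beside 0.00 over all genes, and 2 lectins had an unadjusted p under 0.05. Clec4d had 18 and 26 UMIs in PV, against 1 and 0 in CV (edgeR adjusted p of 1). Cd207 had 23.8 and 149 CPM in PV, against 251 and 429 CPM in CV (log2 -1.66 ± 0.53, edgeR adjusted p of 1), and Clec4a1 had 207 and 205 CPM in PV, against 367 and 310 CPM in CV (log2 -0.68 ± 0.30, edgeR adjusted p of 1). Hcst (-0.54), Lyn (-0.35) and Rel (0.30) were the adaptors with the smallest p. In neutrophils 4 lectins and 10 adaptors were tested, with medians of -0.01 and -0.17 beside -0.01 over all genes, with values of -0.35 for Clec4d and 0.33 for Clec2d among the lectins and, among the adaptors with the smallest p, Syk (0.86), Malt1 (-0.72) and Hcst (-0.34). In all cells 20 lectins and 17 adaptors were tested, with medians of -0.14 and 0.05 beside 0.01, and, as in neutrophils, 0 members had an unadjusted p under 0.05. They were led by Cd207 (-1.59), Clec4g (2.88), Clec1a (1.07), Fcer1g (-0.49), Tyrobp (-0.39) and Hcst (-0.27).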

How the data were processed

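Raw UMI counts per gene and barcode were deposited by the authors, 1 matrix for each of 4 libraries. Per the labels' protocols the libraries come from a 10x kit (Chromium Next GEM 3′, version v3.1). The submitters' processing notes name Cell Ranger 4.0.0 and mm10. The annotation is not given in the sources used here, nor is how cells were called. The labels group libraries by tissue zone and number them by title.

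Symbols were matched for 32158 of 32285 identifiers. Barcodes with at least 200 genes and at most 10% mitochondrial UMIs were kept, and a barcode found in several libraries only where at least 70% of its UMIs lay. That step removed 218 and 134 cells in PV, against 182 and 170 in CV. A cell went to the family with strictly most detected markers in one list, at least 3, and Kupffer cells, cDC1 and mature cells needed 3 markers of their own. The lectins, marker lists and gene lists were chosen with earlier results of these data known. Doublets were called with scanpy 1.11.5 (2 and 7 in PV, 1 and 2 in CV) and left out only in an alternative.

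Counts were summed per library and class. CPM have exact Poisson and unthinned shares Wilson intervals, both at 95%, covering counting error only. Thinned shares are the exact expectation over all draws of 2000 UMIs without replacement, and left out 21 and 27 cells in PV, against 25 and 23 in CV. A sum of 0 has a floor of 3 counts. Sums were tested with edgeR 4.0.16 in R 4.3.3 (TMM, filterByExpr, quasi-likelihood test, Benjamini-Hochberg adjustment at 0.05, checked on simulated counts), for classes with at least 10 cells in each library. With 2 libraries against 2, an exact two-sided permutation test cannot go below 0.333. DESeq2 1.42.0, no low-count filter, a replicate block, leaving out each library, shared barcodes retained, stricter cells (500 genes, 5% mitochondrial), doublets left out and gates of 2 or 4 markers or a lead of 2 were alternatives. Tests in the Kupffer, other macrophage or cDC1 gate alone were added after the data were seen, and the first 2 include libraries with 4, 8 and 9 cells.

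The genes named are the lectins, for each the 3 genes with the highest correlation among genes with at least 50 UMIs, and of the 2 further lists the members with the smallest p (up to 3) in each test and some of those with the highest level in a class. One member of these lists is not reported here. Positions are from GENCODE vM21 on GRCm38. Promoter stretches are the exon-free part of the 250 bases before the start in RefSeq's GRCm38.p6, matched by symbol for 9 of 10 genes. Those of Clec9a and Clec12a lie in exons and are not printed.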

Additional observations from a re-analysis of the deposited data

How the results depend on the processing

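The number of genes called between the zones depended on the fit. In all kept cells edgeR called 0, but 10 with DESeq2, 151 with no filter on low counts and 0 to 229 when 1 library was left out. In macrophages it was 0, but 2 with DESeq2, 50 with no filter, 4 with the replicate block, 0 to 384 when 1 library was left out, 2 in the Kupffer gate alone and 31 in the other macrophage gate alone. In conventional dendritic cells it was 0, but 7 with DESeq2, 146 with no filter and 0 to 79 when 1 library was left out. In neutrophils it was 0, but 2 with no filter and 0 to 28 when 1 library was left out. In all cells and macrophages the most genes were called when PV replicate 2 was left out of the edgeR fit. In conventional dendritic cells and neutrophils, leaving out PV replicate 1 gave the most among these fits. Without PV replicate 2, PV replicate 1, with 4 Kupffer cells, was the only PV library and was assumed to vary like the CV ones. The cause of these moves was not tested.

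Clec10a, Mgl2 and Cd209a were higher in PV under every alternative run in all cells and conventional dendritic cells, and Mgl2 in macrophages. Directions that turned when 1 library was left out were those, in all cells, of Clec4f (-4.24 to 0.68), Clec4e (-2.53 to 0.98), Clec12a (-0.77 to 0.22), Clec1b (-1.66 to 0.46), Clec9a (-0.31 to 1.35) and Cd209d (-1.88 to 0.13). They also turned for Clec4f (-2.15 to 0.089) and Clec9a (-1.15 to 0.025) in macrophages, Clec9a in conventional dendritic cells (-1.30 to 0.045) and Clec4e in neutrophils (-0.59 to 0.72). In macrophages the log2 fold change of Clec9a was 0.0032 with the stricter cell filter and 0.0039 in the Kupffer gate alone, and that of Clec1b 0.0052 there.

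The labels do not say that a number marks a shared mouse or day, and the correlation of the deviations of same-numbered libraries was 0.03, 0.07, -0.06 and 0.25 (in all cells, macrophages, conventional dendritic cells and neutrophils). The edgeR fit with a replicate block called 0, 4, 0 and 0 genes, among them Mgl2 in macrophages (edgeR adjusted p of 0.0143). With no UMI in CV macrophages, Mgl2 passed the low-count filter through PV alone, so that value is a description. Levels of the lectins in their leading classes, or in Kupffer cells for Clec12a, moved by a factor of 0.687 to 1.47 over 68 comparisons, none beyond 1.5. These were means over libraries with at least 10 cells of the class. For Clec10a, Mgl2, Cd209a and Cd209d that was PV replicate 2 alone in the main setting, so their spread between libraries was not covered. In the other cDC, Clec10a gave 1088 CPM in PV replicate 1 and 562 CPM in PV replicate 2. Classes with few cells limit the rest: 3 other cDC, 17 other macrophages and 14 pDC in CV.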
